A study of Mus musculus with 13 samples.

Results

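Pericentromere-associated domains (PADs) are stretches of the mouse genome that lie close to chromocenters, the clusters of pericentromeric satellite repeats in the nucleus. The regions considered here were autosomal and were a PAD in neural precursor cells (NPCs) and in astrocytes (ACs), but a non-PAD in embryonic stem cells (ESCs) and in the thymus. The regions were selected on these 4 calls: consecutive fragment ends with that pattern were joined, and borders were set midway to the next end with another pattern. Of 374542 autosomal fragment ends with calls, 11998 (3.20%) had the pattern, and they formed 446 of the 7813 autosomal runs of any pattern. The regions covered 75.6 Mb, which is 3.13% of the 2414 Mb of autosomal sequence with calls and ranks 9th by sequence among the 16 possible patterns.

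Satellite 4C (sat4C) uses the major satellite repeat as the viewpoint of a 4C experiment, so that sequenced genomic fragments mark DNA that was near a chromocenter. The ESCs were the IB10 line of 129/ola background (3 replicates), the NPCs were derived from these ESCs in vitro (2 replicates), and the ACs were derived in turn from the NPCs (2 replicates). Thymus was the primary tissue of 3 adult male C57BL/6 mice, disaggregated through a strainer before fixation. Each of its 3 replicates was read on both Illumina GAII and HiSeq instruments (6 sets of reads), and the cultured cells on HiSeq only. Strain and sequencing platform as well as tissue thus set it apart from the cultured cells. All samples were fixed with formaldehyde and cut with the same enzymes, and the labels name no transgene or drug for any of them. ESCs, NPCs and ACs belong to a single lineage of cultures, so the shared calls of NPCs and ACs do not come from independent sources.

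Mouse chromosomes have their centromere at the very start of the sequence, and the pericentromeric satellites of several chromosomes gather in each chromocenter. Chromocenters are rich in constitutive heterochromatin, with trimethylated lysine 9 of histone H3 and HP1 proteins. NPCs are dividing progenitors of the neural lineage, and astrocytes are glial cells that support neurons.

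The deposited values are 1 consensus call per cell type, PAD or non-PAD, at each fragment end. The calls hold no value per replicate, and reads of single replicates were not analysed here, so the depth and the replicate error behind these calls are unknown. The labelled cell types could not be checked against marker genes, since the calls hold no expression. The comparisons are descriptions of these calls, with no test, and the SDs are spreads over the 19 autosomes or over regions, neither of which are biological replicates.

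The calls in NPCs covered more of the genome than those of the other cell types. PADs held 70.3% of the autosomal fragment ends in NPCs, against 55.2% in ESCs, 54.1% in ACs and 52.4% in the thymus. The phi coefficient of the calls, which is 1 for identical calls and 0 for unrelated ones, was 0.565 for ESCs and ACs, 0.517 for ACs and the thymus, 0.358 for ESCs and the thymus, 0.356 for ESCs and NPCs, 0.328 for NPCs and ACs and 0.0424 for NPCs and the thymus. NPCs were thus as like ESCs as the thymus was, and the low value was that of NPCs with the thymus. The paper states that the genomic coverage of PADs did not differ markedly between ESCs and the other cell types, unlike the share of fragment ends in NPCs here. Whether the NPC calls analysed here are the final ones of the study could not be settled from the file, and a region depends on its NPC call by definition. Among the fragment ends that were non-PAD in ESCs and the thymus, 84.9% of the 14130 that were PAD in ACs were also PAD in NPCs. Of the 99177 that were non-PAD in ACs, 53.8% were PAD in NPCs. The first share was higher than the second on 18 of 19 autosomes. If the NPC calls are not used, the pattern (PAD in ACs, non-PAD in ESCs and thymus) gave 519 regions of 88.9 Mb, with the same median size of 110 kb. The gene density was then 8.23 genes per Mb and the GC content 42.6%, close to the values of the 446 regions given further on. These 519 regions contain all the sequence of the 446, so the closeness of the values is no check of the NPC calls.

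The fragment ends at the borders of the largest region, on Chromosome 12, show the units from which all regions were built. Nearly all fragment ends begin at a site of MfeI, which cuts at CAATTG, or of NlaIII, which cuts at CATG. Both sites read the same on both strands. In the regions, MfeI sites opened 49.6% of the fragment ends and NlaIII sites 49.1%, against 49.9% and 47.9% of all autosomal ends. The remaining 165 ends in the regions (1.38%, against 2.21% of all) opened with neither site. The first lies at chr12:3617527-3617586 and the last at chr12:5176039-5176098 (mm9, plus strand), and the capitals mark the restriction site.
First fragment end: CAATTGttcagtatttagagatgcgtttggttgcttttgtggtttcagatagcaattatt
Last fragment end: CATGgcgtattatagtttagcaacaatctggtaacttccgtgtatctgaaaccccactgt

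Promoters of genes in the regions ranged from rich in CpG to nearly free of it. The 150 bases before the transcription start site are printed for 6 genes of the families and loci of interest in the regions, to show this range, with every CG in capitals (CG reads the same on both strands). They are chr12:105711538-105711687 for *Gsc*, chr6:97756902-97757051 for *Mitf*, chr6:52154587-52154736 for *Hoxa5*, chr11:100068863-100069012 for *Krt14*, chr11:99877527-99877676 for *Krt33a* and chr4:115168748-115168897 for *Cyp4a14*. All are from mm9 and lie on the minus strand, except *Mitf*, which lies on the plus strand.
Gsc: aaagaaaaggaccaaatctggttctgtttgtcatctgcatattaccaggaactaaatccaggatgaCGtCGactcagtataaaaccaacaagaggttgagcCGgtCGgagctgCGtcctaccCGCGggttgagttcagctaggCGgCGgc
Mitf: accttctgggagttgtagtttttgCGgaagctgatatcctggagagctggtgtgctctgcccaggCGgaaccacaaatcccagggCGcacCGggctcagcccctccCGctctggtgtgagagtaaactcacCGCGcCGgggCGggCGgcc
Hoxa5: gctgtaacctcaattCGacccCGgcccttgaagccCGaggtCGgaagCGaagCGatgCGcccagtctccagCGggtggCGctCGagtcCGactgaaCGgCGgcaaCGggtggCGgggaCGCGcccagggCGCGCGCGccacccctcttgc
Krt14: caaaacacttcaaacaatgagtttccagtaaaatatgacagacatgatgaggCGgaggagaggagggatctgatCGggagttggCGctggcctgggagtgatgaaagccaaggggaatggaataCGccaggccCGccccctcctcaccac
Krt33a: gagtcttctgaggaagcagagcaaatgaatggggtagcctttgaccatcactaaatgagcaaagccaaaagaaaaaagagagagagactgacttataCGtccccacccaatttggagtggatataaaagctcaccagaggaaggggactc
Cyp4a14: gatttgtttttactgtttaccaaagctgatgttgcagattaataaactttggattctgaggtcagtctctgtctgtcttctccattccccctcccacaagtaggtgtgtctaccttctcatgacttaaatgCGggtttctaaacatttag

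*Hoxa5* held 21 CG in these 150 bases, *Mitf* 10, *Gsc* 9, *Krt14* 5, and *Krt33a* and *Cyp4a14* 1 each. At least 1 CG was present in the same window of 88.1% of the promoters in the regions and of 87.7% of all promoters, with a median of 6 in both sets.

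Each region was a piece of the domains that held it, and by the rule it could not be larger than any of them. Their sizes ranged from 0.139 kb to 1565 kb, with a median of 110 kb and quartiles of 42.5 and 216 kb. They held a median of 18 fragment ends, and 74 of them rested on fewer than 5 ends, including 21 with a single end. The 30 regions over 500 kb held 28.1% of the sequence. The sizes of the holding domains were counted once per region, so a domain with several regions counts several times. The AC PAD around a region had a median size of 0.898 Mb and the NPC PAD 2.51 Mb. On the other side, the ESC non-PAD that held a region had a median of 1.00 Mb and the thymus non-PAD 3.28 Mb. A non-PAD is sequence with a lower association with chromocenters, not sequence without any.

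**Figure D1:**
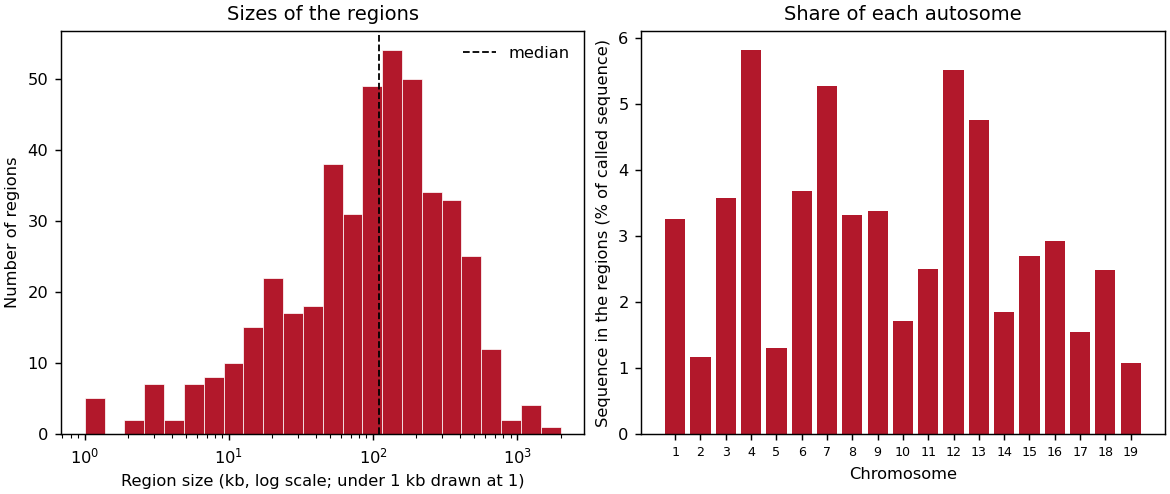
Sizes of the 446 regions in kb on a log axis, with the median marked (left), and the percentage of each autosome's called sequence that lay in the regions (right). Sizes gather around the median of 110 kb, and the share runs from 1.08% on Chromosome 19 to 5.81% on Chromosome 4.

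Most regions directly adjoined an ESC PAD. Of 891 region sides with a neighboring run, 347 (38.9%) bordered sequence that was a PAD in ESCs, NPCs and ACs, so only the ESC call changed at the border. A further 328 sides (36.8%) bordered sequence that was a PAD in NPCs alone, 137 (15.4%) a PAD of NPCs, ACs and thymus, and 66 (7.41%) a PAD of ACs alone. A region ends where the first of the 4 calls changes, so its neighbor nearly always differs by a single call. PADs of all 4 cell types, which need the ESC and thymus calls to change at the same fragment end, touched 6 regions (1.35%), and this low number follows from how the regions were cut.

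By their place beside ESC PADs, 255 regions (57.2%) had an ESC PAD on 1 side and 50 (11.2%) lay between a pair of ESC PADs, where they made up a whole ESC non-PAD. The remaining 141 had no ESC PAD beside them. A thymus PAD was the direct neighbor on 1 side of 96 regions and on both sides of 24. The nearest ESC PAD was at a median of 0 kb (upper quartile 88.8 kb), and the nearest thymus PAD at a median of 296 kb (quartiles 0 and 1321 kb). Of the 446 regions, 309 were nearer to an ESC PAD and 86 nearer to a thymus PAD, and 51 were equally far from both. The rule required non-PAD calls in both cell types but set no distance to their PADs. These distances depend on the size of the non-PADs around the regions, with medians of 1.00 Mb in ESCs and 3.28 Mb in the thymus. Shares for regions of other patterns are not given here.

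In ACs, the regions were spread over 321 of the 967 autosomal PADs (33.2%). These AC PADs had a median size of 0.668 Mb, against 0.518 Mb for all AC PADs. They were picked for holding a region, and a longer PAD has more room for one, so the medians are not a like comparison. An ESC PAD lay inside 248 of them, a thymus PAD inside 155 and neither inside 61. The regions took up 15.9% of their sequence, while ESC PADs covered 72.4% of it. In 51 cases the AC PAD was nothing but the region itself, and 50 of those regions also lacked an ESC PAD beside them. An ESC PAD beside such a region needs the ESC and AC calls to change at the same fragment end. The count of 50 therefore follows from how the regions were cut. These 50 freestanding regions had a median of 145 kb and 14.1 genes per Mb, against 93.7 kb and 7.12 genes per Mb for regions beside 1 ESC PAD. Of the 145 genes in freestanding regions, 12 keratin genes, 16 keratin-associated protein genes and 33 others lay in a single region on Chromosome 11. The higher density thus rests in large part on that locus, and the value without it was not computed. Regions between a pair of ESC PADs had a median of 165 kb and 10.4 genes per Mb. The last 91 regions, without an ESC PAD beside them but within a longer AC PAD, had a median of 110.9 kb and 5.93 genes per Mb, and 69 of them touched a thymus PAD.

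**Figure D2:**
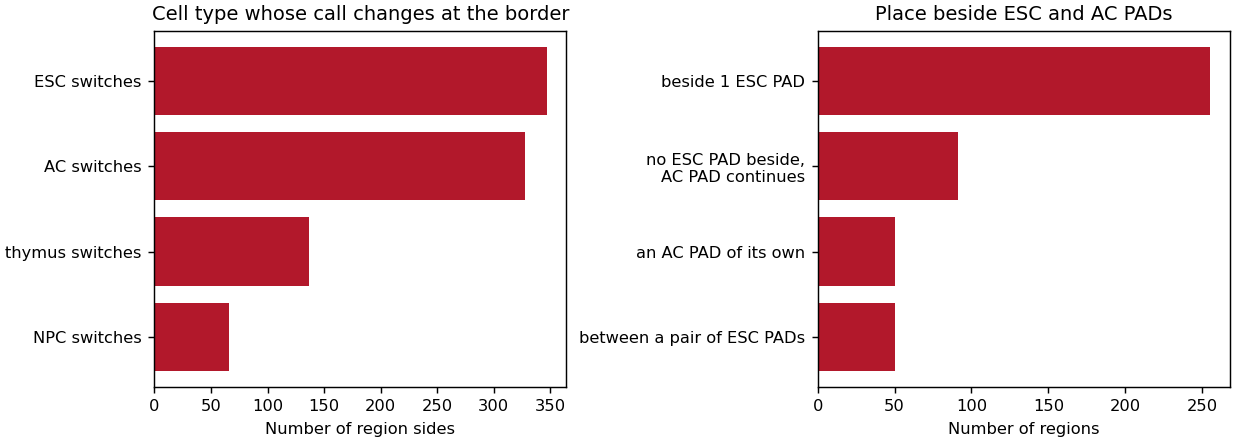
Number of region sides by the cell type whose call changes at the border, for the 4 most common neighbors (left), and number of regions by their place beside ESC and AC PADs (right). At 347 sides only the ESC call changed, and 255 of the 446 regions lay beside 1 ESC PAD.

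The regions were unevenly spread over the autosomes. Their share of called sequence was highest on Chromosome 4 (5.81%, 8.87 Mb and 115 genes), followed by Chromosome 12 (5.52%), Chromosome 7 (5.27%) and Chromosome 13 (4.75%). It was lowest on Chromosome 19 (1.08%), Chromosome 2 (1.16%) and Chromosome 5 (1.29%). Chromosome 4 carried 5 of the 10 largest regions. Between 100 and 120 Mb on that chromosome, 13 regions held 7.11 Mb and 102 genes. In windows of 10 Mb, the share reached 40.1% in the window from 110 Mb and 33.5% in the window from 100 Mb, whereas 87 of 258 windows over all autosomes held no region.

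A single AC PAD on Chromosome 4 (113997352 to 121094040, 7.10 Mb) contained 5 of these regions with 3.28 Mb together. ESC PADs covered 3.67 Mb of it and thymus PADs 0.146 Mb, so that regions and ESC PADs alternated over most of its length. A second AC PAD on the same chromosome (100513138 to 107035933, 6.52 Mb) also held 5 regions, with 2.23 Mb. There ESC PADs covered 3.71 Mb and thymus PADs 3.17 Mb. The third AC PAD with 5 regions lay on Chromosome 7 (126608867 to 129903072, 3.29 Mb). It held 1.41 Mb in the regions, 1.63 Mb of ESC PADs and no thymus PAD.

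Near the centromere the regions were sparse when all autosomes were summed. The first 10 Mb of the autosomes' called sequence held 3.77% of the sequence in the regions and 7.87% of all called sequence, and the last 10 Mb held 10.3% against 7.87%. The SD of the first share over autosomes was 12.1 percentage points, larger than the difference from all sequence. The largest region is itself an exception, since it starts at base 3616553 of Chromosome 12.

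A gene was assigned by the middle of its longest transcript. Of 21397 autosomal protein-coding genes assigned in this way, 636 (2.97%) lay in the regions, close to the 3.13% of called sequence. A gene midpoint was present in 196 regions and absent from 250. Regions with a gene midpoint had a median size of 197 kb and those without a midpoint 59.9 kb. A larger region has more room for a midpoint. Regions without a midpoint were not all free of genes, since 302 of the 446 regions overlapped a gene. The genes were clustered, as 37 regions with 5 or more genes held 383 of them. Entirely inside a region were 533 genes, and 103 crossed its border. As the background for counts of genes in single cell types, 69.4% of all assigned genes were PADs in NPCs, 46.6% in ESCs, 34.9% in ACs and 25.7% in the thymus.

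The gene density of the regions was 8.41 genes per Mb, against 8.86 over all autosomal sequence with calls. Per autosome the difference was -0.598 genes per Mb (SD 4.04, n = 19 autosomes), and the regions were lower on 13 of 19, so it was smaller than the spread between autosomes. Sequence that was a PAD in NPCs alone had 13.3 genes per Mb, 5.39 more than the regions per autosome (SD 5.70, in this direction on 16 of 19 autosomes). PADs of NPCs, ACs and thymus had 3.16 genes per Mb, and the regions were above them on all 19 autosomes, by 5.23 (SD 4.99). PADs of ESCs, NPCs and ACs had 11.7 genes per Mb, and the regions were 2.80 lower per autosome (SD 3.64, lower on 15 of 19).

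The regions also stood between the other patterns in GC content. The regions had a GC content of 42.8%, against 41.9% over all autosomal sequence with calls (0.540 points higher per autosome, SD 1.24, higher on 14 of 19). It was 45.6% in PADs of NPCs alone, where the regions were lower on all 19 autosomes (by 3.17 points, SD 1.11). It was 39.0% in PADs of NPCs, ACs and thymus, and the regions were higher on all 19 (by 3.31 points, SD 1.49). PADs of ESCs, NPCs and ACs had 42.8% as well, and the difference of -0.193 points (SD 1.03) was positive on 9 autosomes and negative on 10. Transcribed protein-coding sequence, introns included, made up 48.5% of the regions and 39.0% of all called sequence. The share was 52.4% in PADs of NPCs alone, 46.4% in PADs of ESCs, NPCs and ACs and 27.4% in PADs of NPCs, ACs and thymus. The higher value was thus not particular to the regions.

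**Figure D3:**
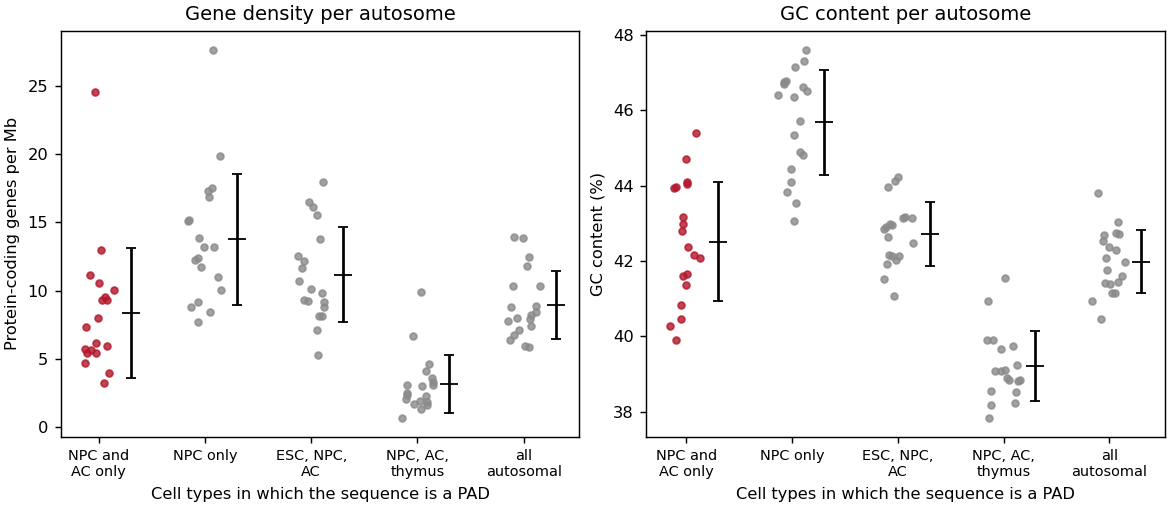
Protein-coding genes per Mb (left) and GC content in % (right) of each autosome, for the regions (red) and for 3 similar patterns and all autosomal sequence (gray). Points are the 19 autosomes, and bars show mean ± SD over them. The regions lie below PADs of NPCs alone and above PADs of NPCs, ACs and thymus in GC content on all 19 autosomes.

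GC content and gene sequence were compared across the region borders. Up to 100 kb on either side was compared, both pooled and border by border. Along the border to PADs of NPCs alone, pooled GC content was 43.1% on the region side and 43.6% outside. Border by border it was 0.342 points higher outside (SD 2.25), and higher at 189 of 328 borders. Along the border to PADs of ESCs, NPCs and ACs the pooled values were 42.8% inside and 43.0% outside, whereas the mean difference (outside minus inside) was -0.164 points (SD 2.17 over 347 borders), so its sign depended on the weighting. Along the border to PADs that the thymus shared, the pooled values were 40.5% inside and 39.8% outside, with a mean difference of -0.432 points (SD 1.59), and GC content was higher outside at 51 of 137 borders. Along the 66 borders to PADs of ACs alone the pooled values were 42.4% inside and 41.9% outside. Border by border the mean difference there was only -0.0011 points (SD 2.24), and GC content was higher outside at 29. Gene sequence, pooled, was 49.2% inside and 47.7% outside for PADs of NPCs alone, 45.7% and 44.9% for PADs of ESCs, NPCs and ACs, 34.8% and 31.4% for PADs shared with the thymus, and 49.7% and 40.3% for PADs of ACs alone. It was lower outside in all 4 pooled comparisons, for which no spread between borders was computed.

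Promoters were called rich in CpG where the 300 bases from 250 before to 50 after the start site had a ratio of observed to expected CpG of at least 0.6 and a GC content of at least 50%. By that measure, 289 of the 636 promoters in the regions (45.4%) were CpG-rich, against 44.2% of all promoters. The 95% Wilson interval of 41.6% to 49.3% covers counting error only. It takes promoters as independent, though many lie side by side in the same region, so it understates the uncertainty. The share was 53.4% in PADs of NPCs alone, 44.9% in PADs of ESCs, NPCs and ACs and 31.9% in PADs of NPCs, ACs and thymus. A single region changed the value of the regions. Without the 61 genes of the keratin region on Chromosome 11, of which 0 had a CpG-rich promoter, the share was 50.3%. That share lies above the interval. With a wider window (1000 bases before to 500 after) it was 36.5% in the regions and 35.8% in all promoters.

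The *Hoxa* cluster was one of the largest regions. *Hox* genes encode homeodomain transcription factors that set position along the body axis and stand in 4 clusters in mammals. A region of 1.14 Mb on Chromosome 6 (51836832 to 52973669, 179 fragment ends) held all 12 *Hoxa* entries (11 symbols, since *Hoxa3* stands for a pair of entries), with the homeobox gene *Evx1*, the adaptor gene *Skap2*, *Hibadh*, *Tax1bp1* and *Jazf1* around them. In ACs the PAD had exactly these borders. In NPCs it ran for 1.92 Mb, with NPC-only sequence on both sides. In ESCs the surrounding non-PAD was 6.37 Mb long and the nearest ESC PAD was 1396 kb away. The thymus non-PAD was 3.96 Mb long, with a thymus PAD 373 kb away.

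The other 3 clusters had other calls. *Hoxb* on Chromosome 11 (10 genes) was a non-PAD in all 4 cell types, *Hoxc* on Chromosome 15 (9 genes) was a PAD in ESCs and NPCs, and *Hoxd* on Chromosome 2 (9 genes) was a PAD in ESCs, NPCs and ACs. No *Hox* gene was a PAD in the thymus, where 25.7% of all genes were. Each cluster spans 96.8 to 174 kb, so its genes share their calls and count as 4 loci rather than 40 genes. At that background, 4 loci can be without a thymus PAD and still not stand apart. Of the 4, *Hoxa* alone was a PAD in both NPCs and ACs and a non-PAD in ESCs.

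The region with the most genes lay on Chromosome 11 (99456644 to 100102827, 0.646 Mb, 113 fragment ends). It held 61 genes, of which 12 encode type I keratins, 16 keratin-associated proteins and 33 carry other names, most of them gene models without a family name. Keratins form the intermediate filaments of epithelia and, with keratin-associated proteins, the hair shaft. Among them were *Krt14* of basal epidermal cells, *Krt15*, *Krt19*, *Krt13* and *Krt9*, and the hair keratins *Krt31*, *Krt32*, *Krt33a*, *Krt33b*, *Krt34*, *Krt35* and *Krt36*. As with *Hoxa*, the region was an AC PAD of its own, NPC-only sequence flanked it, and ESC and thymus PADs were far away (1695 and 6222 kb). Of the 27 type I keratins on the chromosome, those 12 were the only PADs in ACs. Of all 51 genes with a keratin symbol, 35 were PADs in NPCs, near the 69.4% of all genes. There were 12 in ACs, 7 in ESCs and 0 in the thymus, where 34.9%, 46.6% and 25.7% of all genes were PADs, and keratin genes stand in a few arrays that share their calls.

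**Figure D4:**
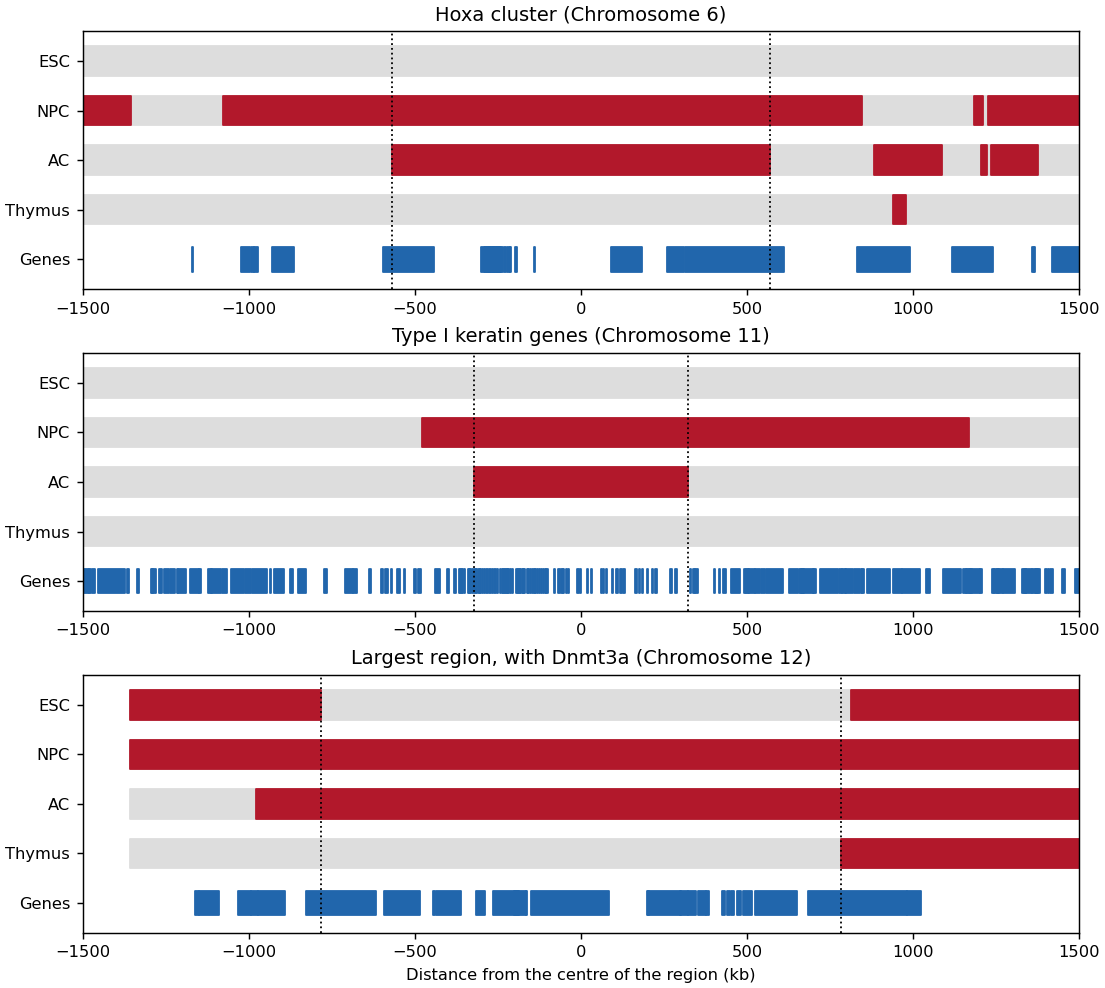
PAD calls (red) and non-PAD calls (light gray) of ESCs, NPCs, ACs and thymus, and protein-coding genes (blue), around the *Hoxa* region, the type I keratin region and the largest region, by distance from the region's centre in kb. Dotted lines are the region borders. In the first pair of maps the AC PAD ends at both borders, and in the third the left border is that of an ESC PAD and the right border that of a thymus PAD.

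The largest region lay on Chromosome 12 (3616553 to 5181108, 1.56 Mb, 177 fragment ends) and held 21 genes. They include *Dnmt3a*, which encodes a de novo DNA methyltransferase, the adenylyl cyclase gene *Adcy3*, the nuclear receptor coactivator gene *Ncoa1*, the endocytic scaffold gene *Itsn2*, *Pomc*, which encodes the precursor of adrenocorticotropic hormone, and *Atad2b*. ESC PAD sequence adjoined it on one side and thymus PAD sequence on the other. In ACs and NPCs it was a small piece of PADs of 12.9 and 13.3 Mb. Its ESC non-PAD was 1.59 Mb long and its thymus non-PAD 2.14 Mb.

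A region of 1.17 Mb on Chromosome 4 (117078937 to 118252551) filled a whole ESC non-PAD and held 22 genes at a GC content of 48.3%. Among these were the glycine transporter gene *Slc6a9*, the cell cycle gene *Cdc20*, the endothelial receptor gene *Tie1*, the histone demethylase gene *Kdm4a*, the neurotrophic factor gene *Artn* and the receptor phosphatase gene *Ptprf*. The next region on the chromosome (118890657 to 119978302, 1.09 Mb) also filled an ESC non-PAD, with 18 genes such as *Ybx1*, *Foxj3*, *Foxo6*, *Hivep3*, *Edn2* and the guanylin and uroguanylin genes *Guca2a* and *Guca2b*. Both lay in the AC PAD of 7.10 Mb with 5 regions and in a thymus non-PAD of 7.07 Mb.

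The fifth largest region, on Chromosome 11 (80445126 to 81525061, 1.08 Mb), was an ESC non-PAD as well, but held 3 genes. Gene sequence made up 92.7% of it, mostly *Accn1*, which encodes an acid-sensing ion channel subunit of neurons. On Chromosome 4, the region from 104042353 to 104950918 (0.909 Mb) held the complement genes *C8a* and *C8b*, the AMP-activated kinase gene *Prkaa2* and *Ppap2b*. The region from 106183203 to 107035933 (0.853 Mb) held 19 genes, with the deiodinase gene *Dio1* among them. The region from 110882581 to 111619471 (0.737 Mb) held *Bend5*, *Spata6*, *Slc5a9* and *Skint8*. The ninth lay on Chromosome 6 (97484000 to 98200126, 0.716 Mb), with *Mitf* as its only gene, and the tenth on Chromosome 1 (84116319 to 84809145, 0.693 Mb), with *Pid1*, *Dner* and *Trip12*. Among the regions with the most genes was also one on Chromosome 2 (181105393 to 181675784, 0.570 Mb). Its 18 genes include *Sox18*, a regulator of endothelial cells, the neural zinc finger gene *Myt1*, the nociceptin receptor gene *Oprl1* and the splicing gene *Prpf6*.

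Long genes made up a larger share of the genes in the regions than of all genes. Of the 898 autosomal protein-coding genes of 200 kb or more, 39 (4.34%) had their midpoint in a region, and they made up 6.13% of the genes in the regions against 4.20% of all genes. The median length was 19.6 kb in the regions and 15.4 kb overall. Of the 39 long genes, 33 crossed a border, and 26 of those had more than 50% of their length inside. The longest was the phosphodiesterase gene *Pde4d* (1297 kb, 40.8% in the region), followed by *Accn1* (1088 kb, 76.4%), the receptor phosphatase gene *Ptprn2* (792 kb, 30.3%), the nuclear receptor gene *Rora* (734 kb, 32.6%), *Cdkal1* (664 kb, 55.8%) and the sodium/hydrogen exchanger gene *Slc9a9* (561 kb, 74.0%). For these genes the call changed within the transcription unit. Entirely inside were *Ror1*, *Dner*, *Hivep3*, *Ncoa1*, *Mitf* and *St3gal3*, 203 to 349 kb long.

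The lists of cell identity genes had almost no member in the regions. None of 18 astrocyte genes, 18 neural precursor genes, 29 neuronal and synaptic genes, 21 pluripotency genes, 24 T cell genes, 43 genes of signaling ligands and inhibitors or 18 housekeeping genes had its midpoint there. At 2.97% of all genes, lists of this length can be without a member and still not stand apart. By their calls in single cell types, 15 of the 18 astrocyte genes were PADs in NPCs, 9 in ESCs, 5 in ACs and 4 in the thymus, in the same order as all genes (69.4%, 46.6%, 34.9% and 25.7%). By any overlap, the long neuronal genes *Syt1*, *Cntnap2* and *Dlg2* touched a region, and by start site so did the T cell gene *Themis*. Of 34 regulators of other lineages, *Gsc*, the goosecoid homeobox gene of the gastrula organizer, and *Mitf*, the regulator of melanocytes, were in the regions.

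The large families were present at very different shares. Beside the 12 *Hox* and 12 keratin entries, 8 of 98 cytochrome P450 genes (8.16%), 7 of 211 *Tmem* genes (3.32%), 9 of 358 solute carriers (2.51%) and 2 of 94 potassium channel genes (2.13%, *Kcnc2* and *Kcnk10*) lay there. Zinc finger genes named *Zfp* (3 of 387, 0.775%) and olfactory receptor genes (6 of 1106, 0.542%) were below the 2.97% of all genes. None of 330 vomeronasal receptor, 75 ribosomal protein, 60 interleukin and interferon, 57 protocadherin and cadherin or 42 collagen genes was included. Members of a family often lie side by side and share a call, so these counts rest on few loci. Of the 1106 olfactory receptor genes, 900 were PADs in ESCs and 816 in the thymus, against 46.6% and 25.7% of all genes. The rule admits none of these. The same counts were 237 and 265 of 330 vomeronasal receptor genes and 42 and 40 of 57 protocadherin and cadherin genes. They were 35 and 23 of 60 interleukin and interferon, 32 and 7 of 75 ribosomal protein and 18 and 12 of 42 collagen genes.

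A few tandem families fell into the regions as blocks. These were picked after their values were seen. On Chromosome 12 (105321360 to 105749769, 0.428 Mb), 11 of the 22 *Serpina* genes, which encode serine protease inhibitors, lay with *Gsc* in a freestanding AC PAD, and the other 11 were non-PADs in ACs. On Chromosome 4 (115065403 to 115657299, 0.592 Mb), 6 of the 18 *Cyp4* genes, fatty acid hydroxylases, filled an ESC non-PAD with *Mknk1*, *Atpaf1* and *Dmbx1*. Of the 18, 16 were PADs in ACs and 10 in ESCs, against 34.9% and 46.6% of all genes, but the genes stand in tandem and share their calls. On Chromosome 15 (74770836 to 75311054, 0.540 Mb), 7 of 17 *Ly6* genes, encoding surface proteins with a lipid anchor, lay in a region with few other genes, and these 7 were the only *Ly6* genes that were PADs in ACs (34.9% of all genes were). Another 7 of the 17 were PADs in ESCs, where 46.6% of all genes were.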

How the data were processed

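The authors mapped sat4C reads to the fragment ends of a reduced mm9 genome, fitted a hidden semi-Markov model with PAD and non-PAD states per replicate (R package mhsmm), and combined replicates by majority vote, using a virtual pool for ties. For the aligner, no name is given in the sources used here. The deposited values are other than numbers: the words PAD or nPAD in 4 columns, 1 per cell type, with 0 columns of unmapped samples and no read counts, so the depth of a call is unknown.

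Regions were built as stated in the text. Sequence came from NCBIM37 (mm9), and protein-coding genes came from GENCODE vM1. Each gene was assigned by the middle of its longest transcript, and GC content was taken over sequenced bases. Computation used Python 3.11.15, numpy 2.4.6, pandas 2.3.3, scipy 1.17.1, pysam 0.24.0 and matplotlib 3.10.9, and run building was tested on simulated calls.

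The regions and gene lists were chosen with earlier results of these data known. Named were the 10 largest regions, the 5 with most genes, genes of 200 kb or longer, and list members. The tandem families, the place of regions beside ESC and AC PADs and the AC PADs with most regions were chosen after their values were seen. Of the genes listed, *Sox1*, *Sox3*, *Syn1*, *Nr0b1*, *Ptcra*, *Gata1*, *Spi1*, *Hprt* and *Pgk1* were not placed as autosomal protein-coding genes under these names. Some genes in the regions are not reported here by name.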

Additional observations from a re-analysis of the deposited data

How the results depend on the processing

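Of 57 values under alternative settings, 56 stayed within 1.5 times the reported count or within its spread. These limits were wide, as the SD over autosomes was 4.76 genes per Mb for gene density and 12.1 percentage points for the first 10 Mb. Most settings also reused most of the same sequence, so this count is a weak check. The settings were borders at the outer fragment ends, regions of 1 end or under 5 ends left out, short interruptions joined, gaps over 100 kb broken, Chromosome X included, NPC calls not used, other gene placements and the first 5 or 20 Mb. The number of regions ranged from 372 (regions under 5 ends left out) to 519 (NPC calls not used), their sequence from 73.0 to 88.9 Mb, the genes from 610 to 812 (any overlap) and gene density from 8.18 to 10.7 genes per Mb. The share of CpG-rich promoters moved from 45.4% to 36.5% with the window of 1000 bases before to 500 after the start site, as all promoters did from 44.2% to 35.8%. The values without regions of 1 end, and those without NPC calls for the position and CpG shares, were chosen after seeing the data. No paired analysis was possible because the calls give 1 consensus per cell type, and for the same reason no replicate could be left out. Depth limits on single calls are unknown.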

Other observations

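Further freestanding regions, which were an AC PAD of their own with no ESC PAD beside them, lay on Chromosome 8 (123337897 to 123869255, 0.531 Mb) with the forkhead genes *Foxf1a* and *Foxc2*, and on Chromosome 13 (109622651 to 110152426, 0.530 Mb) within *Pde4d*. On Chromosome 13 (33940538 to 34617101, 0.677 Mb), a region that filled an ESC non-PAD held the beta-tubulin genes *Tubb2a* and *Tubb2b*, the kinase gene *Ripk1* and *Serpinb6a*. On Chromosome 9 (72585974 to 72966211, 0.380 Mb) a region with 11 gene entries, among them *Rab27a* and *Prtg*, filled a thymus non-PAD, as 24 of the 446 regions did. These regions were picked after their values were seen.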
